A study of Mus musculus with 16 samples.

Results

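The genes described here belong to the machinery that assembles antibody light chains: the surrogate light chain genes Vpreb1, Vpreb3 and Igll1, the recombination genes Rag1, Rag2 and Dntt, and the light chain constant genes Igkc, Iglc1, Iglc2 and Iglc3. They were chosen by name. Of the 10 genes listed, 8 had a row among the 27928 genes of the table, and Igll1 and Rag2 had no row and were not analysed here. Every row of the table held at least 1 read over the 8 libraries. A missing row may therefore stand for no reads in any library, which could not be tested. RNA was sequenced from B cells of the follicular (FO) and the marginal zone (MZ) type, sorted from spleens of C57BL/6 mice, 8 to 12 weeks old per the study's methods. The mice were wild type (WT) or carried Gtf2i fl/fl with a Cre driven in the B cell lineage (cKO), so that Gtf2i, which encodes the transcription factor TFII-I, was deleted in B cells. Each of the 4 groups (WT FO, WT MZ, cKO FO, cKO MZ) had 2 libraries, no treatment is named, and no label said whether replicates came from separate mice, so that p-values measure the spread between these libraries, which may be technical.

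A developing B cell first pairs its immunoglobulin heavy chain with a surrogate light chain made of VpreB and lambda5, the product of Igll1, to form the pre-B cell receptor. Rag1 and Rag2 encode the recombinase that joins V, D and J segments, and Dntt encodes terminal deoxynucleotidyl transferase, which adds bases at the joints. Light chain rearrangement then yields a kappa chain, which ends in the constant region of Igkc, or less often in the mouse a lambda chain, which ends in that of Iglc1, Iglc2 or Iglc3, and these early genes are switched off as the cell matures. Vpreb3 is an exception in kind: its product is related to VpreB but sits in the endoplasmic reticulum, and its RNA is also known from later B cell stages. FO cells recirculate through the follicles, whereas MZ cells stay at the border of the white pulp and respond early to blood-borne antigen.

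The lambda constant genes are related in sequence, which bears on how reads can be assigned to them. All 3 lie on the minus strand of chromosome 16 of GRCm38 (GENCODE M21): Iglc2 at chr16:19198396-19200351, Iglc3 at chr16:19065230-19065681 and Iglc1 at chr16:19061618-19062071, each annotated as an immunoglobulin constant gene. Over the aligned coding bases Iglc2 and Iglc3 were 95.9% identical, with 13 of 314 positions different, whereas Iglc1 was 73.3% identical to Iglc2 and 74.5% identical to Iglc3. A stretch of 100 coding bases is shown 5′ to 3′ from the reference genome, chosen as the one in which all of them align without a gap and Iglc2 and Iglc3 differ most, with capitals at the 26 positions where the genes are not all alike, because these letters are what tells a lambda read of one gene from that of another.
Iglc1, chr16:19061968-19062067, minus strand: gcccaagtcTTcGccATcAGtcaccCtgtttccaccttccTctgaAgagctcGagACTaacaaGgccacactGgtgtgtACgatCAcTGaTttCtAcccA
Iglc2, chr16:19198749-19198848, minus strand: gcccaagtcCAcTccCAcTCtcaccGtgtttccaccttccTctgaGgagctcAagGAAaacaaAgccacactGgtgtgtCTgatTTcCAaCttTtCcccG
Iglc3, chr16:19065578-19065677, minus strand: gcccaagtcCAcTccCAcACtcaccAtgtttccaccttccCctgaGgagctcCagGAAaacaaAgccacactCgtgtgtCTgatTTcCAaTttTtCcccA
Within this stretch Iglc2 and Iglc3 differed at 7 positions, while Iglc1 differed from Iglc2 at 24 and from Iglc3 at 23. Reads were 50 bases long. Of the 514 windows of 50 bases in the exons of Iglc2, 43 (8.37%) also occurred in Iglc3, and these 43 were 10.7% of the 403 windows of Iglc3. No window of Iglc1 was shared with Iglc2, Iglc3, Iglc4, Igll1 or Igkc. The split of reads between Iglc2 and Iglc3 is therefore less certain than the count of Iglc1, since how reads that match both genes were counted is not given in the sources used here.

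Depth ran from 21546552 to 25083552 reads on genes per library. The sort markers went with the labels: Cr2, which encodes CD21, ran from 86953 to 97087 normalized read counts (reads divided by a size factor of the library) in MZ and from 22942 to 26803 in FO libraries, and Fcer2a, which encodes CD23, from 3069.5 to 6708 in MZ and from 24802 to 41973 in FO libraries. Gtf2i ran from 1992 to 2864 in WT and from 1523 to 1889 in cKO libraries, all cKO below all WT, on reads counted over the whole gene, in which the deleted part cannot be told apart from the rest. One library stood apart: cKO MZ replicate 1 held a summed normalized count of 13304 over 6 erythroid genes, against 25.9 to 1007 in the other 7 libraries, and of 2687 over 12 myeloid and granulocyte genes, against 346 to 1085. For Vpreb3, Iglc1, the lambda shares and the list genes called in cKO, values without this library are given beside the results. Without it, 1073 genes were called between FO and MZ cells of cKO, against 2026 with it.

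Among the surrogate light chain genes, Vpreb3 was the one expressed beyond a few reads, and it was higher in FO than in MZ cells of both genotypes. Vpreb3 (ENSMUSG00000000903.3, plus strand, chr10:75943057-75949657, 3 exons) had 1345 and 1774 normalized read counts in the FO libraries of WT and 548 and 802 in the MZ libraries. The FO libraries of cKO held 1344 and 1798, and the MZ libraries 780.4 and 816. Every FO library thus lay above every MZ library, and the lowest FO value, in cKO FO replicate 1, was well above the highest MZ value, in cKO MZ replicate 2. The group means were 1560 ± 303 (SD, n = 2) in FO cells of WT, 1571 ± 321 in those of cKO, 675 ± 180 in MZ cells of WT and 798 ± 24.9 in those of cKO.

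The limma fit on log2(normalized count + 1), with a standard error of 0.22, put Vpreb3 1.22 higher in FO than in MZ cells of WT mice (adjusted p = 0.00926). In cKO mice the same limma fit gave 0.96 (adjusted p = 0.0209). Taking both genotypes together, a comparison chosen after the values were seen, the difference was 1.09 (SE 0.151, limma adjusted p = 0.000596). Between genotypes no difference in Vpreb3 passed the test, as the cKO minus WT value was 0.01 in FO (limma adjusted p = 1.000), 0.27 in MZ (limma adjusted p = 0.998) and 0.14 over both subsets (SE 0.151, limma adjusted p = 0.846). The interaction, the FO to MZ difference in cKO less that in WT, was -0.26 and did not pass the test (SE 0.312, limma adjusted p = 1.000). In cKO the FO to MZ call was lost without cKO FO replicate 2 (0.75, limma adjusted p = 0.115), without cKO MZ replicate 1 (0.93, 0.121) and without cKO MZ replicate 2 (0.99, 0.0889), and in WT it was lost when the 4 WT libraries were fitted alone (1.22, limma adjusted p = 0.0514).

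Set against all genes tested, Vpreb3 was 1 of 6 tested members called higher in FO cells in each comparison of subsets, at an adjusted p of at most 0.05 and a fold change of at least 1.5. Over all 14761 genes tested, 4.62% were called higher in FO and 7.41% higher in MZ cells in WT, 5.54% and 8.18% in cKO, and 7.94% and 11.6% over both genotypes. None of the 6 tested members was called higher in MZ cells by limma, DESeq2 or edgeR. At an unadjusted p under 0.05 in limma, 1 of the 6 differed in WT (Vpreb3). In cKO and over both genotypes 2 did (Vpreb3 and Igkc), and all were higher in FO. Of all 14761 genes tested, 4469 in WT, 4933 in cKO and 6990 over both genotypes were under that p, in either direction. The median log2 difference of the 6 tested members was 0.13 in WT and -0.06 in cKO, and that of all genes tested was 0.0048 in WT and 0.0047 in cKO.

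**Figure D1:**
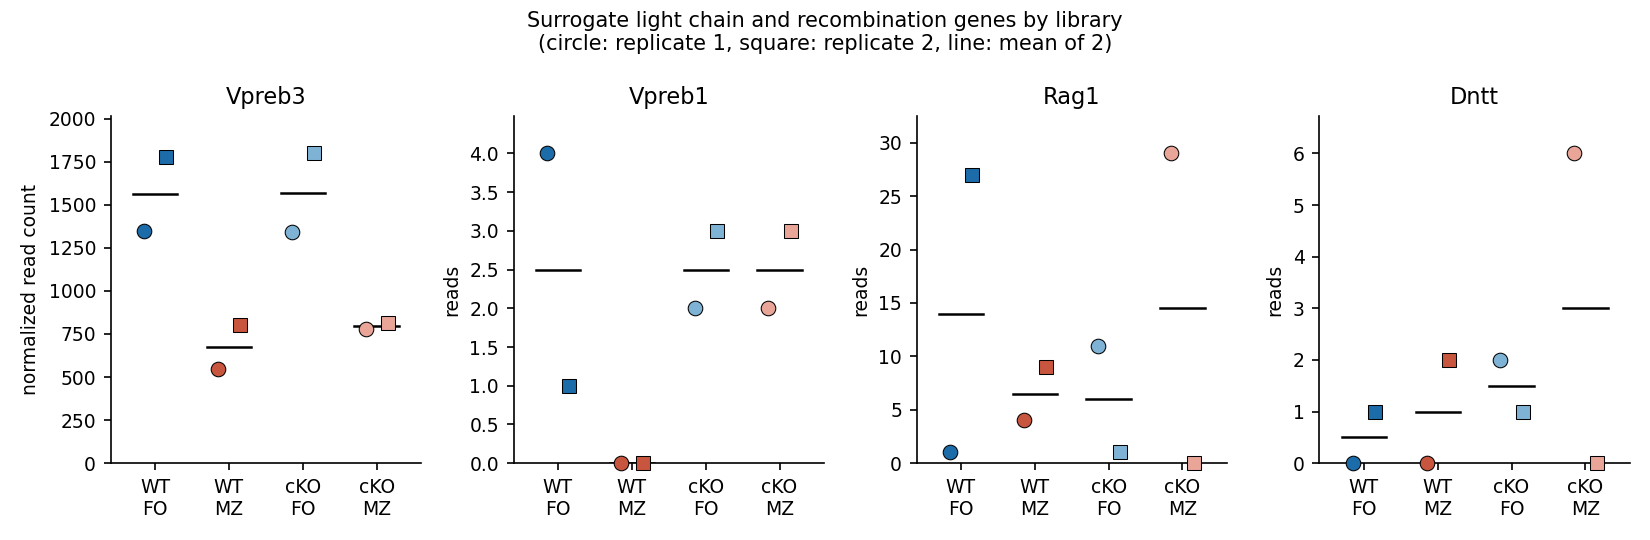
Normalized read counts of Vpreb3 and reads of Vpreb1, Rag1 and Dntt (vertical axes, each from 0) in the WT FO, WT MZ, cKO FO and cKO MZ groups (horizontal axis), with a circle for replicate 1, a square for replicate 2 and a line at the mean of 2. All 4 FO libraries lay above all 4 MZ libraries for Vpreb3, whereas the other genes stayed at 29 reads or fewer in every library.

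The promoters of Vpreb3 and Vpreb1 are shown because one gene was expressed in all these mature cells and the other was almost silent. Each run holds the 250 bases before the gene's start in the RefSeq annotation of GRCm38.p6, 5′ to 3′, and capitals mark matches, on either strand, to the octamer ATTTGCAT, which Oct factors bind in immunoglobulin promoters, or to the E-boxes CAGGTG and CAGCTG, which E proteins bind.
Vpreb3, chr10:75948050-75948299, plus strand: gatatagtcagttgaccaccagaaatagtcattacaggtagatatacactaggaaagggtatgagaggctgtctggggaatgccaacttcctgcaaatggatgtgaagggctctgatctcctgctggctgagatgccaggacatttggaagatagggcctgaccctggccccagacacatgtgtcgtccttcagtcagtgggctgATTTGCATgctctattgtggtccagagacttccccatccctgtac
Vpreb1, chr16:16869256-16869505, minus strand: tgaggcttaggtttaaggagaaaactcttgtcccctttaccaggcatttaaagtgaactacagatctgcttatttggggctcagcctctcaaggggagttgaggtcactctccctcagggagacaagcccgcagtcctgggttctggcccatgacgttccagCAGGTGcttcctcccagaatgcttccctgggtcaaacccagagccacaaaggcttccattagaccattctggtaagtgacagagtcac
The Vpreb3 window held the octamer, 45 to 38 bases before the start, which 526 of 32851 promoter windows of that length (1.60%) also held. The Vpreb1 window held CAGGTG, 88 to 83 bases before the start, a motif found in 17.2% of the windows. Among the other early genes, the windows of Igll1 and Rag1 held both E-boxes (CAGCTG occurred in 13.0% of all windows), and those of Rag2 and Dntt held none of the 3 motifs. The windows of Vpreb3 and Vpreb1 lie inside the gene bounds that GENCODE M21 gives, where the start is further upstream. Their positions before the start therefore hold for the RefSeq start only. These matches describe letters and not binding.

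Vpreb1 (ENSMUSG00000059305.12, minus strand, chr16:16868403-16870843), which encodes the VpreB part of the surrogate light chain, left only traces of RNA. It had 4 and 1 reads in the FO libraries of WT, 2 and 3 in those of cKO, 0 and 0 in the MZ libraries of WT, and 2 and 3 in those of cKO. In the same order the groups summed to 5, 5, 0 and 5 reads, and the exact Poisson 95% interval of a sum of 5 reads ran from 1.62 to 11.7. For a count of 0 in a single library a separate fixed bound of 3 reads was set, which is not an interval of the group sum. Both cKO MZ libraries thus held reads where both WT MZ libraries held none, and the interval and the bound cover counting error only. Vpreb1 was under the minimum mean normalized count of 10 and was left out of the fit. With no such minimum, its cKO minus WT difference in MZ was 1.81 (SE 0.603) and did not pass the test (unadjusted p = 0.0168, limma adjusted p = 0.971), nor did FO minus MZ in WT mice, at 1.64 (unadjusted p = 0.0257, limma adjusted p = 0.175).

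Rag1 (ENSMUSG00000061311.6, minus strand, chr2:101638282-101649501), the catalytic subunit of the recombinase, was also near the limit of detection, and its replicates differed widely. It had 1 and 27 reads in the FO libraries of WT, 11 and 1 in those of cKO, 4 and 9 in the MZ libraries of WT, and 29 and 0 in those of cKO. The highest and the lowest library were thus the replicates of a single group, cKO MZ, and the highest was the library that also held erythroid and granulocyte RNA. Rag1 passed the filter with a mean just above the minimum and was called in no comparison by limma, DESeq2 or edgeR, with limma adjusted p from 0.954 to 1.000 in the 3 comparisons of genotypes. Dntt (ENSMUSG00000025014.13, plus strand, chr19:41029275-41059525) had 0 and 1 reads in the FO libraries of WT, 2 and 1 in those of cKO, 0 and 2 in the MZ libraries of WT, and 6 and 0 in those of cKO, and was left out of the fit for the same reason. Its highest count fell in the same library as that of Rag1, and no group had more than 6 reads in all.

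Per kilobase of exon, the scale on which levels of different genes can be compared, the mean normalized count of Vpreb3 ran from 786 in WT MZ to 1828 in cKO FO. That of Vpreb1 ran from 0 to 2.19, of Rag1 from 0.908 to 2.19 and of Dntt from 0.208 to 1.30. The cells that could carry such traces were looked at through marker genes. Of 9 progenitor and pre-B cell genes, Cd34, Erg and Arpp21 were at no more than 5.0 normalized read counts in any library, Il7r ran from 4.8 to 32.5 and Kit from 4.8 to 32.9, and the summed level of all 9 ran from 643 to 1170 in FO libraries and from 461 to 776 in MZ libraries. Plasmacytoid dendritic cells are also known to carry Rag and Dntt transcripts. Their surface receptor Siglech had 5.0 and 36.2 normalized read counts in the FO libraries of WT, 10.1 and 7.0 in those of cKO, 17.3 and 55.2 in the MZ libraries of WT, and 35.9 and 14.4 in those of cKO. In each group the replicate with more Rag1 reads also had more Siglech, and likewise more Kit, Il7r, Lef1 and Bst2. This was not so in every group for the other markers of either list. The same order held for genes of other cell types: Lyz2, Csf1r, Adgre1 and Cd14 of the myeloid list, and Jchain and Mzb1 of the plasma cell list. It did not hold in every group for the other genes of the myeloid and plasma cell lists, so the order is not particular to 1 cell type. Of the other 6 markers of these cells, Klk1 and Cox6a2 were at no more than 4.8 in any library, and the summed level of all 7 ran from 6128 to 6703 in FO and from 8289 to 9709 in MZ libraries, most of it Tcf4, which B cells also express and which was lower in FO cells of WT by 0.64 (limma adjusted p = 0.00394). The summed level of 7 T cell genes ran from 751 to 1286, most of it the kinase Lck, at 692 to 1226. Among the others Cd3e and Cd8a were at no more than 7.0 and Cd4 at no more than 19.0, and of the 2 that were tested, Lck was not called and Trac, at 6.7 to 38.9, was lower in FO cells of WT by 1.55 (limma adjusted p = 0.0485). The part of any of these cells in the Vpreb1, Rag1 or Dntt reads was not tested, and in bulk samples fewer cells of a type and less RNA per cell cannot be told apart.

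The partners through which the surrogate light chain signals were at high levels in all groups. Of the 8 measured partners of the pre-B cell receptor (Vpreb2, the ninth on the list, had no row), only the adaptor Blnk was called, with a log2 difference of FO minus MZ of -0.68 in WT mice (limma adjusted p = 0.0297) and -0.63 over both genotypes (limma adjusted p = 0.00224). In cKO none was called by limma, DESeq2 or edgeR, with 5 of 8 at an unadjusted p under 0.05 in limma. The signaling subunit Cd79b, for example, measured 28809 and 41336 in the FO libraries of WT, 27611 and 39446 in those of cKO, 32725 and 41838 in the MZ libraries of WT, and 36924 and 34468 in those of cKO, so that the groups overlapped. The partner with the most normalized counts was Ighm, the mu heavy chain, at 122725 to 225292 normalized read counts. The list median for FO minus MZ was 0.03 in WT and 0.06 in cKO.

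The genes that assist the recombinase or join the ends it leaves, all 12 of which were tested, are also used for general DNA repair and were expressed in every library. Of these, Hmgb1, a DNA-bending protein that helps the recombinase and is abundant in many cell types, was higher in FO cells in WT (log2 difference 0.88, limma adjusted p = 0.0237) and over both genotypes (0.74, limma adjusted p = 0.00318). It measured 2996 and 1941 in the FO libraries of WT, 2193 and 2439.8 in those of cKO, 1482 and 1157 in the MZ libraries of WT, and 1536 and 1500.3 in those of cKO, with every FO library above every MZ library. None of the 12 was called in cKO by limma, with 4 at an unadjusted p under 0.05 and 1 called by each of DESeq2 and edgeR. Prkdc, the gene with the most normalized counts on the list when these are not divided by length, was not called in any comparison. It went the other way, from 2254 to 2937 in FO and from 3453 to 3852 in MZ libraries. Over both genotypes 8 of the 12 were at an unadjusted p under 0.05 in limma, against 6990 of all 14761 genes tested. The list median was -0.16 in WT and -0.09 in cKO.

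Several regulators of the early B cell program differed between FO and MZ cells of both genotypes. Of 17 tested, 4 were called higher in FO and 1 lower in WT, and the same counts held in cKO. At an unadjusted p under 0.05 in limma, 11 of the 17 differed between subsets in WT, 11 in cKO, and 2 between genotypes in MZ. Of all 14761 genes tested, 4469, 4933 and 596 did so in these comparisons. Bach2, a repressor of plasma cell fate, was higher in FO cells by log2 values of 1.97 for WT and 1.92 for cKO (limma adjusted p = 0.000163 and 0.000157). Foxo1, which promotes Rag expression in developing cells, was 0.62 and 0.72 higher (limma adjusted p = 0.00451 and 0.00196), and Mef2c, a factor of B cell proliferation, 0.97 and 1.11 higher (limma adjusted p = 0.00165 and 0.000814). Id3, an inhibitor of E proteins, was called higher in FO cells in WT, and Runx1 in cKO. Id2, which also inhibits E proteins, had differences of -2.05 and -1.92 (limma adjusted p = 0.00131 and 0.00151). Ebf1 and Tcf3, which drive Vpreb1 and Igll1 expression in precursors, were called in no comparison, and neither was Pax5. Pax5 had the most normalized counts on the list, 23482 to 39413, when these are not divided by length. Its FO libraries held 36360 and 39413 in WT and 34091 and 35016 in cKO. Its MZ libraries held 31322 and 31598 in WT and 23482 and 25696 in cKO. Every FO library thus lay above every MZ library, and both cKO MZ libraries lay below both WT MZ libraries. The share of all genes ordered in such a way was not counted, for Pax5 or for the other genes so described. Without cKO MZ replicate 1 the calls in cKO were 3 higher and 1 lower, with Runx1 lost (limma adjusted p = 0.0980). The list median was 0.26 in WT and 0.42 in cKO.

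Markers of immature cells moved in both directions. Of 6 tested progenitor and pre-B cell genes, Lef1, a transcription factor of B and T cell precursors, had log2 differences of 2.94 in WT and 3.22 in cKO (limma adjusted p = 0.0286 and 0.0184), at 63.9 and 148 normalized read counts in the FO libraries of WT, 123 and 118 in those of cKO, 4.8 and 27.2 in the MZ libraries of WT, and 14.0 and 10.3 in those of cKO. Flt3, a cytokine receptor of progenitors, had a difference of -0.98 in cKO (limma adjusted p = 0.0123). Of the 4 genes of immature and transitional cells, Cd93 had a difference of 2.17 and Cd24a of -0.70 in cKO (limma adjusted p = 0.0237 and 0.0112). In WT none of these 4 was called by limma or edgeR, with 2 at an unadjusted p under 0.05 in limma and 1 called by DESeq2. Without cKO MZ replicate 1 none of the 4 calls in cKO held in limma: Lef1 was at 3.42 (adjusted p = 0.0843), Flt3 at -0.94 (0.0957), Cd93 at 2.03 (0.139) and Cd24a at -0.63 (0.0887). Over both genotypes limma called Lef1 (3.08, adjusted p = 0.00104), Sox4 (1.43, 0.0129), Cd93 (1.95, 0.00230) and Spn (1.68, 0.0230) higher in FO cells. It called Flt3 (-0.66, 0.0126) and Cd24a (-0.63, 0.000723) lower. Without cKO MZ replicate 1 these differences were, in the same order, 3.14, 1.14, 1.85, 1.86, -0.58 and -0.60. The list medians were 0.30 in WT and 0.80 in cKO for progenitor genes and 0.56 in WT and 0.96 in cKO for immature and transitional genes.

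Kappa RNA was somewhat higher in FO than in MZ libraries and was called in no comparison at the 1.5-fold minimum. Igkc (ENSMUSG00000076609.2, plus strand, chr6:70726435-70726966), the single kappa constant gene, measured 85112 and 89032 normalized read counts in the FO libraries of WT, 85608 and 92179 in those of cKO, 66842 and 82127 in the MZ libraries of WT, and 67611 and 63382 in those of cKO. Every FO library lay above every MZ library, with the smallest gap between WT MZ replicate 2 and WT FO replicate 1. The log2 difference of FO minus MZ was 0.23 for WT (SE 0.133, limma adjusted p = 0.290), 0.44 for cKO (SE 0.133, limma adjusted p = 0.0554) and 0.34 over both genotypes (SE 0.0923, limma adjusted p = 0.0192). In the comparison over both genotypes, chosen after the values were seen, 5589 of all 14761 genes tested passed the p threshold. The Igkc value passed it too and stayed under a fold change of 1.5. It passed the p threshold no longer without cKO FO replicate 1, cKO FO replicate 2 or cKO MZ replicate 2 (limma adjusted p = 0.0513, 0.0624 and 0.0748). The cKO minus WT difference over both subsets was -0.07 (SE 0.0923, limma adjusted p = 0.867).

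The lambda constant genes did not show this order, and the replicates of a group often lay further apart than the groups. Iglc1 measured 2825 and 5201 normalized read counts in the FO libraries of WT, 2874 and 3102 in those of cKO, 3456 and 6289.6 in the MZ libraries of WT, and 7356 and 2773 in those of cKO. Both the highest and the lowest Iglc1 value were thus in cKO MZ, and the cKO FO values lay close together. Iglc2 measured 9372 and 11906 in the FO libraries of WT, 8081 and 10379 in those of cKO, 9260.5 and 11959.8 in the MZ libraries of WT, and 12229.6 and 8658 in those of cKO. Iglc3 measured 5058 and 7126 in the FO libraries of WT, 4869 and 7554 in those of cKO, 4674 and 6538 in the MZ libraries of WT, and 6916 and 5555 in those of cKO. For each of these 3 genes the FO and MZ libraries overlapped in both genotypes.

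Over both genotypes the log2 difference of FO minus MZ was -0.44 for Iglc1 (SE 0.324, limma adjusted p = 0.318), -0.08 for Iglc2 (SE 0.145, limma adjusted p = 0.693) and 0.04 for Iglc3 (SE 0.175, limma adjusted p = 0.866). Over both subsets the difference of cKO minus WT was -0.20 for Iglc1 (SE 0.324, limma adjusted p = 0.904), -0.12 for Iglc2 (SE 0.145, limma adjusted p = 0.864) and 0.09 for Iglc3 (SE 0.175, limma adjusted p = 0.923). None of the 6 tested members was called between genotypes in FO, in MZ or over both subsets, nor in the interaction, by limma, DESeq2 or edgeR, and none was at an unadjusted p under 0.05 in limma. Without cKO MZ replicate 1 the Iglc1 values were -0.13 for FO minus MZ and -0.52 for cKO minus WT (limma adjusted p = 0.752 and 0.891). Over all genes tested, 0.0677% were called between genotypes in FO, 0.0339% in MZ, 0.149% over both subsets and 0% in the interaction.

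**Figure D2:**
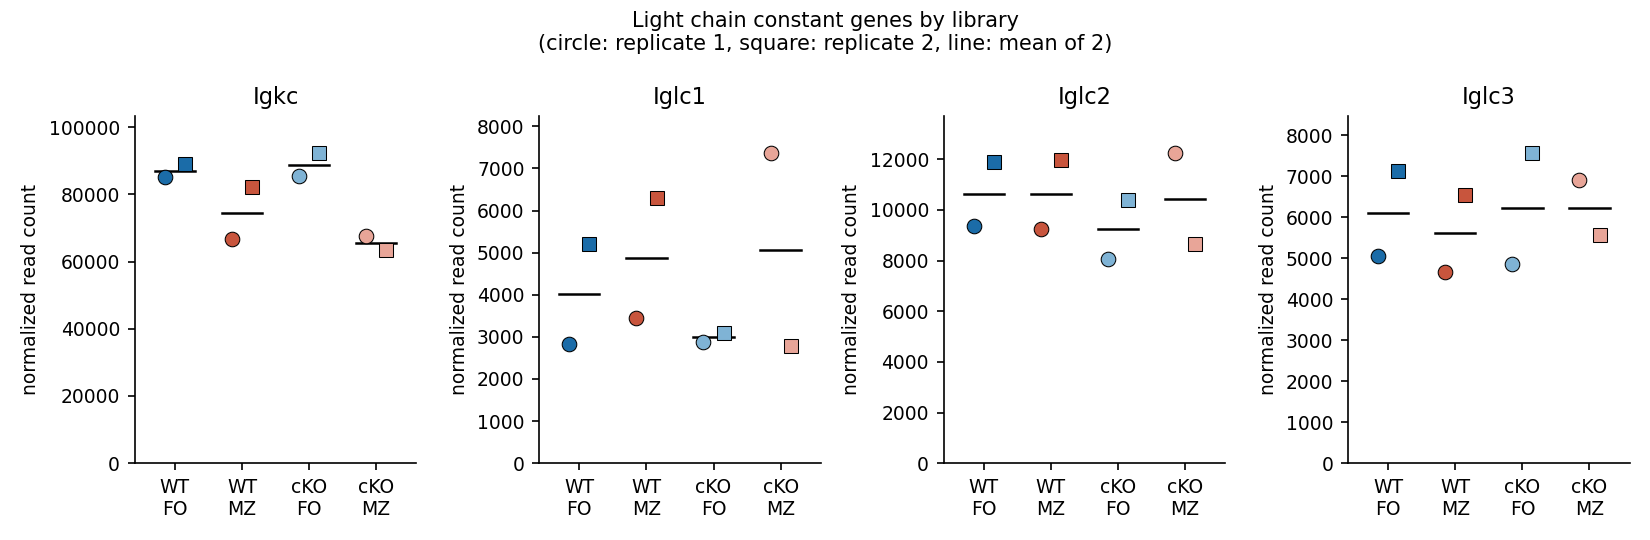
Normalized read counts of the light chain constant genes Igkc, Iglc1, Iglc2 and Iglc3 (vertical axes, each from 0) in the 4 groups (horizontal axis), with a circle for replicate 1, a square for replicate 2 and a line at the mean of 2. The FO libraries lay above the MZ libraries for Igkc, from 85112 against at most 82127, while for the lambda genes the groups overlapped.

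**Figure D3:**
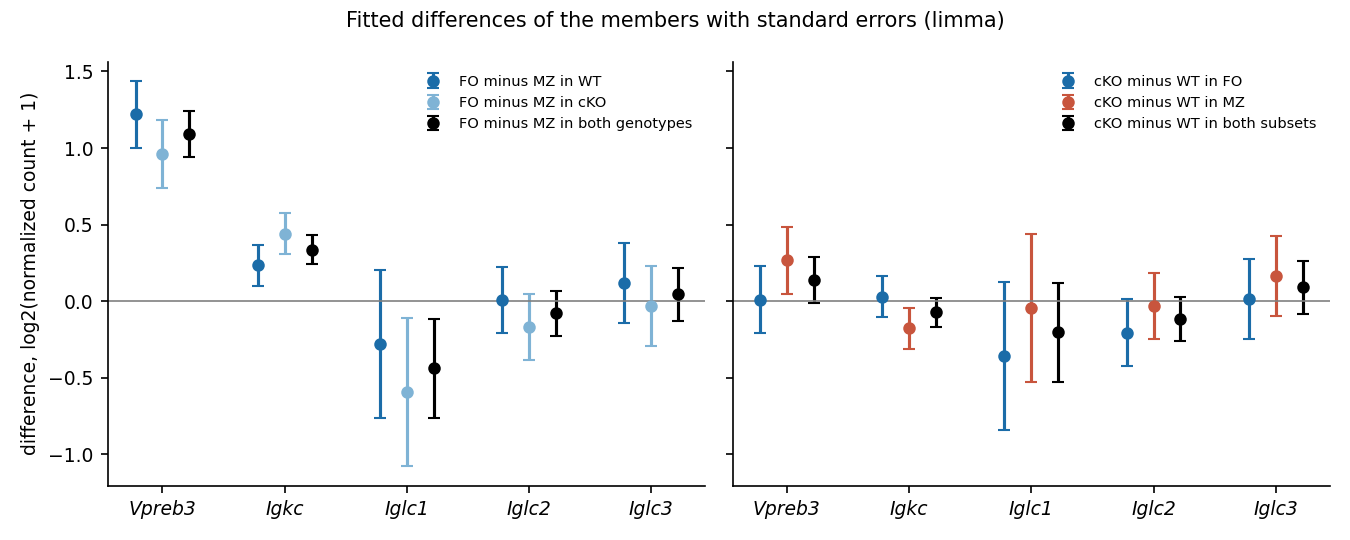
Fitted log2 differences of FO minus MZ (left) and of cKO minus WT (right) for 5 tested members, with bars of 1 standard error from limma. Vpreb3 stood at 1.22 in WT and 0.96 in cKO between subsets, and the differences between genotypes ran from -0.36 to 0.27.

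Per kilobase of exon, kappa RNA stood far above lambda RNA and the lambda genes kept one order in all 4 groups. The mean normalized count per kilobase ran from 123114 to 167093 for Igkc, from 15082 to 17384 for Iglc2, from 12402 to 13795 for Iglc3 and from 6582 to 11155 for Iglc1. On this scale the libraries of Iglc1 and Iglc3 overlapped in every group but cKO FO, and those of Iglc2 and Iglc3 in every group but WT MZ. Iglc4, annotated at the same locus, measured 11.3 to 40.3 normalized read counts.

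Lambda light chain use was described through RNA only, and in bulk samples cell number and RNA per cell cannot be told apart. The measure was the share of Iglc1, Iglc2 and Iglc3 in the summed normalized counts of these genes and Igkc, not a fraction of cells. It was 16.9% and 21.4% in the FO libraries of WT, 15.6% and 18.6% in those of cKO, 20.6% and 23.2% in the MZ libraries of WT, and 28.2% and 21.1% in those of cKO. The FO and MZ libraries overlapped in WT and did not overlap in cKO, where the highest share of all was that of cKO MZ replicate 1. The mean share was 18.1% ± 2.51 (SD, n = 4) in FO and 23.3% ± 3.43 in MZ libraries, a difference of -5.17 percentage points that did not pass the test (2-sided exact permutation test over 70 regroupings, p = 0.0857, 0.343 after Benjamini-Hochberg adjustment over 4 tests). Without cKO MZ replicate 1 the difference was -3.55 points (exact permutation p = 0.114), and without WT FO replicate 2 it was -6.27 points (exact permutation p = 0.0286, the smallest that test can give). Between genotypes the difference of cKO minus WT was 0.349 points (exact permutation p = 0.971, adjusted 0.971), and without cKO MZ replicate 1 it was -2.08 points (exact permutation p = 0.343). A test of 2 against 2 libraries cannot go below an exact p of 0.333, so none was run within a genotype.

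Iglc1 made up a minor part of the lambda RNA. Its share of the 3 lambda constant genes was 16.4% and 21.5% in the FO libraries of WT, 18.2% and 14.7% in those of cKO, 19.9% and 25.4% in the MZ libraries of WT, and 27.8% and 16.3% in those of cKO. The groups overlapped in every comparison. FO minus MZ was -4.64 points (exact permutation p = 0.229, adjusted 0.457) and cKO minus WT was -1.52 points (exact permutation p = 0.657, adjusted 0.876). Without cKO MZ replicate 1 these differences were -2.84 and -4.36 points (exact permutation p = 0.400 and 0.114).

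**Figure D4:**
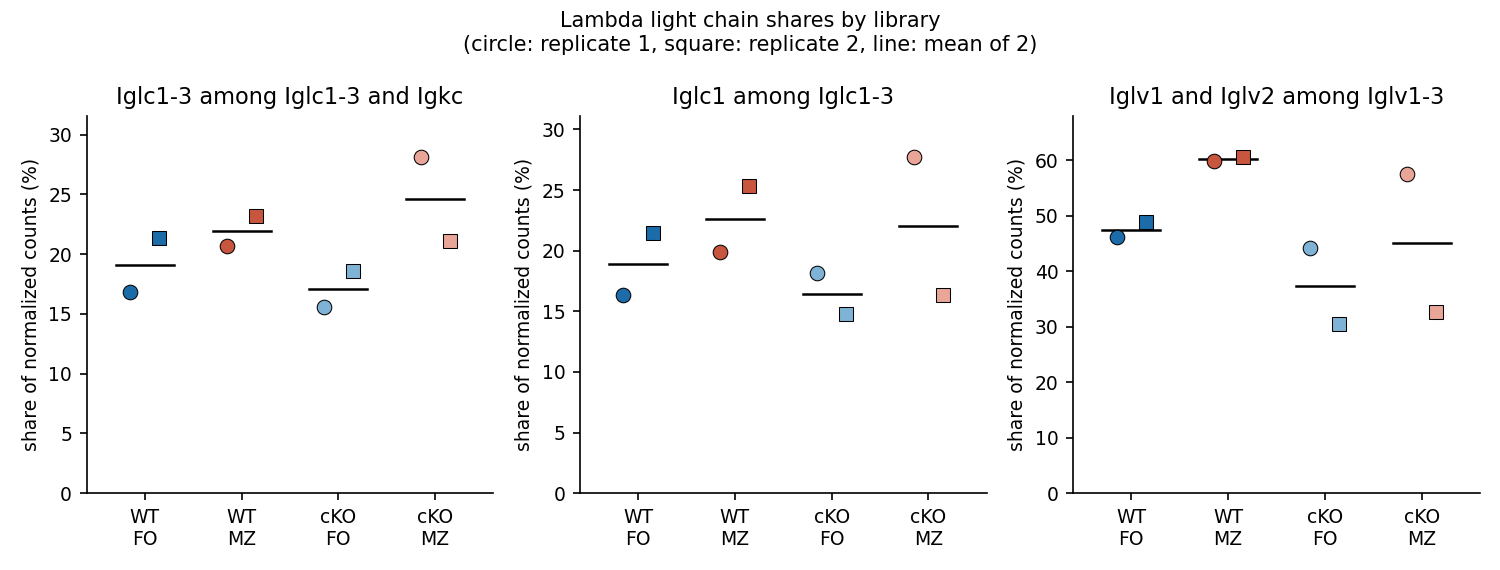
Share in percent (vertical axes, from 0) of the 3 lambda constant genes among light chain constant counts, of Iglc1 among the lambda constant genes, and of Iglv1 and Iglv2 among the lambda variable genes, by group (horizontal axis), with a circle for replicate 1, a square for replicate 2 and a line at the mean of 2. The lambda share of MZ libraries ran from 20.6% to 28.2% and overlapped that of FO libraries, which ran from 15.6% to 21.4%.

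The variable genes bear on which lambda chains were made, since Iglv1 lies upstream of Iglc3 and Iglc1, and Iglv2 and Iglv3 lie upstream of Iglc2. Iglv1 measured 1073 and 1830.4 normalized read counts in the FO libraries of WT, 1019 and 746 in those of cKO, 1301 and 2247 in the MZ libraries of WT, and 2462 and 532 in those of cKO. Its highest and lowest values fell in the same libraries as those of Iglc1. Iglv2 measured 355 and 588 in the FO libraries of WT, 287 and 81.5 in those of cKO, 997 and 1137 in the MZ libraries of WT, and 945 and 111 in those of cKO, and in WT both MZ libraries lay above both FO libraries. Iglv3 ran from 1329 to 2542. The share of Iglv1 and Iglv2 in the counts of these 3 genes was 46.2% and 48.8% in the FO libraries of WT, 44.2% and 30.5% in those of cKO, 59.8% and 60.6% in the MZ libraries of WT, and 57.4% and 32.6% in those of cKO. Both replicates labelled 2 of the cKO groups thus had the lowest values, and this share was not tested. As it joins Iglv1 with Iglv2, which lie upstream of different constant genes, the share does not follow either set of constant genes. Windows of 50 bases shared between variable genes were not examined, so how surely reads were split between Iglv1 and Iglv2 is not known. Of 12 variable and joining segments tested, none was called in any comparison by limma, DESeq2 or edgeR. At an unadjusted p under 0.05 in limma there was 1 in FO minus MZ over both genotypes, 1 in cKO minus WT over both subsets and 0 in the other comparisons. The list median for FO minus MZ was 0.21 in WT and 0.08 in cKO.

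Plasma cells hold large amounts of light chain RNA, so their markers are given beside the lambda shares. Jchain, which joins secreted antibody units, measured 619 and 968.5 normalized read counts in the FO libraries of WT, 1474 and 297 in those of cKO, 305 and 3692 in the MZ libraries of WT, and 1615 and 524 in those of cKO. In 3 of the 4 groups the replicate with more Jchain was also the one with the higher lambda share, and in cKO FO it was the other. The plasma cell list was split on this order. In every group the replicate with the higher lambda share had more Sdc1, Derl3 and Txndc5 and less Prdm1 and Irf4. The other genes of the list followed the share in some groups and not in others. Tnfrsf17, a receptor of plasma cells, was at no more than 8.2 in any library. Of 8 tested plasma cell genes, Mzb1, Derl3 and Prdm1, which serve antibody secretion and plasma cell fate, were called lower in FO cells of either genotype and Sdc1 higher, with Txndc5 also higher in cKO. Mzb1 had log2 differences of -2.61 and -2.31, and Sdc1 of 2.76 and 3.22, in WT and cKO (limma adjusted p = 0.000251 and 0.000357, 0.0107 and 0.00495). Without cKO MZ replicate 1 the cKO calls of Mzb1 and Sdc1 held (-2.02 and 3.41, limma adjusted p = 0.00438 and 0.0341), and those of Derl3, Prdm1 and Txndc5 were lost (limma adjusted p = 0.0787, 0.143 and 0.123). Over both genotypes limma called Derl3 (-2.01, adjusted p = 0.000388) and Prdm1 (-1.79, 0.00146) lower and Txndc5 (0.97, 0.00352) higher in FO cells. Without cKO MZ replicate 1 these differences were -2.00, -1.84 and 1.04. The list median was -0.40 in WT and -0.27 in cKO. Summed over all 9 genes the level ran from 21002 to 36916 in FO libraries and from 25461 to 44208 in MZ libraries, most of it Irf4, which these B cells also express. The part of plasma cells in the lambda shares was not tested.

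Across the 8 libraries, the tested genes whose normalized counts most resembled those of Vpreb3 were Mylip (Pearson r = 0.997), Icam2 (0.993), Rasgrp3 (0.993), Tmem50a (0.992) and Epb41l5 (0.992), out of 14760 genes compared. For the sum of the lambda constant genes they were Sptssa (0.954), Spcs3 (0.952), Msrb1 (0.951), Rfc5 (0.950) and 4833422M21Rik (0.939), out of 14758. These are descriptions over libraries that share subset and genotype, and no p is given.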

How the data were processed

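RNA was measured in 8 libraries, 2 in each of 4 groups taken from the sample labels. ATAC-seq libraries of the same design, 8 in all, were not analysed here. Per the study's methods and the submitters' processing notes, total RNA was depleted of ribosomal RNA, sequenced as single-end reads of 50 bases, aligned with HISAT2 to mm10 and counted on genes with featureCounts and HTSeq. The authors deposited a signal, counts normalized with DESeq2, 1 size factor per library. Multiplying back by the size factors gave whole reads for 100% of the values (tolerance 0.01 reads). The 14761 genes whose normalized count averaged 10 or more were fitted on the scale log2(normalized count + 1) in limma 3.58.1 (R 4.3.3, trended eBayes), all 8 libraries in a single fit, with Benjamini-Hochberg adjustment over all genes. A gene was called at an adjusted p of at most 0.05 and a fold change of at least 1.5. Shares were compared by 2-sided exact permutation tests. DESeq2 1.42.0 and edgeR 4.0.16 were run on the recovered reads as alternatives, beside other pseudocounts, filters and scalings and each library left out. Scripts were tested on simulated data. Coordinates and lengths are from GENCODE M21 for GRCm38, and promoters from RefSeq for GRCm38.p6. The members and lists were chosen with earlier results of these data known. All 10 members were named. Of the lists, genes called in a comparison and the most abundant gene could be named, as could Gtf2i, Cr2, Fcer2a and the 5 genes most like Vpreb3 or the lambda sum. Marker genes near 0, Cd79b, Ebf1, Pax5, Tcf3, Siglech, Bst2, Jchain, Lyz2, Csf1r, Adgre1, Cd14, Iglc4 and the variable genes were named after their values were seen. The result for 1 gene of the lists is not reported here.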

Additional observations from a re-analysis of the deposited data

How the results depend on the processing

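Limits come first from 2 libraries per group. The replicate numbers were not taken to pair the libraries, as no label says that they do: same-numbered deviations from the group means correlated at 0.591 (WT FO with WT MZ), 0.294 (WT FO with cKO FO) and 0.161 (WT MZ with cKO FO), and with cKO MZ at -0.172 (WT FO), -0.296 (WT MZ) and -0.00151 (cKO FO). With the replicate block, Vpreb3 kept its differences, 1.22 for WT and 0.96 for cKO mice (limma adjusted p = 0.000845 and 0.00209), and the number of genes called moved to 1973 in WT and 2262 in cKO. With the numbers of cKO MZ crossed, chosen after seeing the data, 2262 and 2585 genes were called. Of the 486 alternative values computed, 452 kept their direction and side of the threshold.

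Vpreb3 was not called in WT when only the 4 libraries compared were fitted (0 members called) nor in cKO at a 2-fold minimum (0 members), and without a fold minimum 2 members, Vpreb3 and Igkc, were called over both genotypes. Leaving out 1 library at a time left 0 to 1 members called between subsets in cKO. The directions that turned were of differences that did not pass the test, and the cause was not tested. Under quantile normalization the Iglc3 difference of FO minus MZ was -0.092. The cKO minus WT difference in lambda share was -0.0636 percentage points with Iglc1 alone as lambda and -0.385 with the variable genes added. Leaving out 1 library at a time, FO minus MZ ran from -0.17 to 0.036 for Iglc2 and from -0.070 to 0.19 for Iglc3. For cKO minus WT, Vpreb3 ran from -0.20 to 0.22 in FO and from -0.0082 to 0.54 in MZ, and its interaction from -0.53 to 0.017. Over both subsets Igkc ran from -0.12 to 0.0055, Iglc1 from -0.52 to 0.047 and Iglc3 from -0.022 to 0.23. The lambda share of FO minus MZ ran from -6.27 to -3.55 points and of cKO minus WT from -2.08 to 2.10, and the Iglc1 share of cKO minus WT from -4.36 to 0.0117. Over all genes, the number called in FO minus MZ was 1776 for WT, 2026 for cKO and 2877 for both. It was 1014 for WT with only the 4 libraries compared, 1325 for cKO and 1704 for both at a 2-fold minimum, and 5589 for both with no minimum. Without 1 library it was as low as 1073 for cKO. DESeq2 called 24, 48 and 78 genes between genotypes in FO, in MZ and over both subsets, against 10, 5 and 22 by limma.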
